A study of Homo sapiens with 14 samples.

Results

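The TNF ligand and receptor superfamilies were followed through 7 siRNA groups of the human line OVCAR4, which stands for high-grade serous carcinoma of the ovary. Members were the protein-coding genes whose symbol begins with TNFSF or TNFRSF and a digit, together with TNF, LTA, LTB, LTBR, CD40, CD40LG, CD70, CD27, FAS, FASLG, EDA, EDAR, EDA2R and NGFR. This gave 47 of the 58219 genes counted, 19 of them ligands and 28 receptors. The groups, with 2 libraries each, were siPAX8, siSOX17, siDual (the PAX8 and SOX17 pools together), siMECOM and siWT1, set against the non-targeting pools siNT1 and siNT2. All 14 cultures, controls included, were reverse transfected with 120 nM of siRNA on 300000 cells, given fresh medium after 24 hours and harvested at 72 hours for total RNA. The siRNAs were pools, and their sequences are not used here. Whether the paired libraries of a group are separate transfections is not stated, so the p-values may rest on technical spread. RNA was measured in bulk, where fewer cells and less RNA per cell cannot be told apart.

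TNF family ligands are mostly trimeric proteins of the cell surface, several of which are cut off and released. Their receptors fall into classes by what they recruit inside the cell. Receptors with a death domain, such as FAS and the TRAIL receptors, bind adaptors such as FADD or TRADD and can start caspase activation. Receptors without one, such as CD40 and LTBR, bind TRAF proteins and activate NF-kappaB and kinase pathways. Decoy receptors bind ligand without signalling. In ovarian carcinoma cells TNF is best known as a cytokine that the tumour cells themselves make.

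The sequence just before the start is shown for 3 ligands on which the results below turn: TNF and LTB, which lie next to each other on chromosome 6, and TNFSF14, the ligand with the largest increase after PAX8 knockdown. Each is the 250 bases before the RefSeq start on GRCh38.p14, read on the gene's own strand. Capitals mark a TATAAA element in TNF and a match to the NF-kappaB consensus in LTB and TNFSF14. The TNF stretch is chr6:31575315-31575564 on the plus strand, the LTB stretch is chr6:31582426-31582675 on the minus strand, and the TNFSF14 stretch is chr19:6670161-6670410 on the minus strand.
TNF: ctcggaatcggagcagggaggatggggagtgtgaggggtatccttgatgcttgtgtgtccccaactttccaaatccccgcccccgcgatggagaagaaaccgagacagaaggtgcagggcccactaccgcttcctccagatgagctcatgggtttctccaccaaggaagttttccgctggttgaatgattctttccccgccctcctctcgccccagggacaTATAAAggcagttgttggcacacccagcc
LTB: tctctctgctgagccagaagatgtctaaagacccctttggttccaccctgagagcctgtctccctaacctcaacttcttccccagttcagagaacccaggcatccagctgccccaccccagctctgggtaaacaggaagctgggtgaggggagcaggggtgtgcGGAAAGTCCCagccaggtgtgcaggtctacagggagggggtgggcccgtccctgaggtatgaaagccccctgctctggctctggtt
TNFSF14: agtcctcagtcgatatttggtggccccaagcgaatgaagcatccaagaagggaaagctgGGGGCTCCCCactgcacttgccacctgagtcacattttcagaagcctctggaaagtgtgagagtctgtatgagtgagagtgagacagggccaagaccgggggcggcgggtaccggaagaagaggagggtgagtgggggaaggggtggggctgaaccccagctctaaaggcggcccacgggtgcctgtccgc
The TATAAA of TNF lay 29 to 24 bases before the start. The NF-kappaB match lay 86 to 77 bases before the RefSeq start of LTB, on the strand opposite to the gene, and 191 to 182 bases before that of TNFSF14. As counted here, both genes reach further upstream, to 31582522 for LTB and 6670588 for TNFSF14. The LTB match and the whole TNFSF14 window thus lie inside the genes as counted. Of the 47 members, 29 had such a window. The NF-kappaB consensus, searched on both strands, was in 4 of these 29 windows and in 5.21% of the 35114 windows of all genes. TATAAA, which was in 4 of the 29, was in 10.7% of all windows. The SOX core motif ACAAT was in 4 of the 29 and in 24.6% of all windows, and in none of the 3 sequences printed. A match describes letters only, and is not evidence of a bound site.

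The libraries held 40832825 to 49803860 gene counts. Each targeted transcript was lower under its own pool. In CPM (counts per 1e6 reads of the scaled library), PAX8 stood at 32.8 and 38.3 in siPAX8 and at 52.8 and 50.6 in siDual, against 192 to 225 in the controls. SOX17 stood at 15.7 and 13.1 CPM in siSOX17 and at 15.9 and 17.7 CPM in siDual, against 104 to 119 CPM in the controls. The factors also moved under each other's pools: SOX17 reached 240 and 219 CPM in siMECOM, and PAX8 was at 112 and 118 CPM in siWT1. PAX8 was at 266 and 273 CPM in siSOX17, and SOX17 at 77.9 and 82.9 CPM in siPAX8. The part of such shifts in the differences between groups was not tested. MECOM was at 8.76 and 16.4 CPM in siMECOM, at 45.6 and 43.6 CPM in siSOX17 and at 47.5 and 51.1 CPM in siDual, against 125 to 133 CPM in the controls. WT1 was at 0 and 0.0191 CPM in siWT1 and at no more than 0.430 CPM in any control library, so siWT1 targeted a transcript that was almost absent. Of 10 epithelial markers of serous carcinoma 9 averaged at least 1 CPM in every group, the exception being WT1, and the list summed to 8503 to 10868 CPM in siPAX8, 13112 to 13393 in siSOX17, 18295 to 20919 in siDual, 4548 to 5294 in siMECOM and 3824 to 4065 in siWT1, against 4199 to 4984 CPM in the controls. The part of this in the members' values was not tested. Counts on mitochondrially encoded genes took 7.91 to 11.0% of the knockdown libraries and 5.34 to 6.13% of the controls. With those genes left out, the members called against the controls numbered 17 in siPAX8, 21 in siSOX17, 20 in siDual, 13 in siMECOM and 16 in siWT1.

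In the control libraries the most abundant members were receptors without a death domain, CD40 and LTBR among them, and the ligand TNFSF9. Per length (RPKM, that is CPM per kilobase of exon, mean ± SD over the 4 control libraries), the highest member was TNFRSF12A, the receptor for TWEAK, at 43.3 ± 2.99 RPKM. TNFSF9 (4-1BB ligand) at 19.6 ± 1.00 RPKM, CD40 at 19.1 ± 1.97 RPKM and LTBR, the lymphotoxin beta receptor, at 17.3 ± 0.798 RPKM followed. TNFRSF21 (DR6) stood at 15.5 ± 1.03 RPKM and TNFRSF1A, the main TNF receptor, at 15.2 ± 0.278 RPKM. The gaps between CD40 and TNFSF9, and between TNFRSF21 and TNFRSF1A, were smaller than their SDs. TNF itself was at 8.86 ± 1.18 RPKM, CD70 at 6.04 ± 1.04 RPKM, and LTB, the lymphotoxin beta chain, at 3.96 ± 0.904 RPKM. Among TRAIL receptors TNFRSF10B (DR5) was at 4.12 ± 0.275 RPKM and TNFRSF10A (DR4) at 3.19 ± 0.300 RPKM, while FAS was at 1.76 ± 0.103 RPKM.

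**Figure D1:**
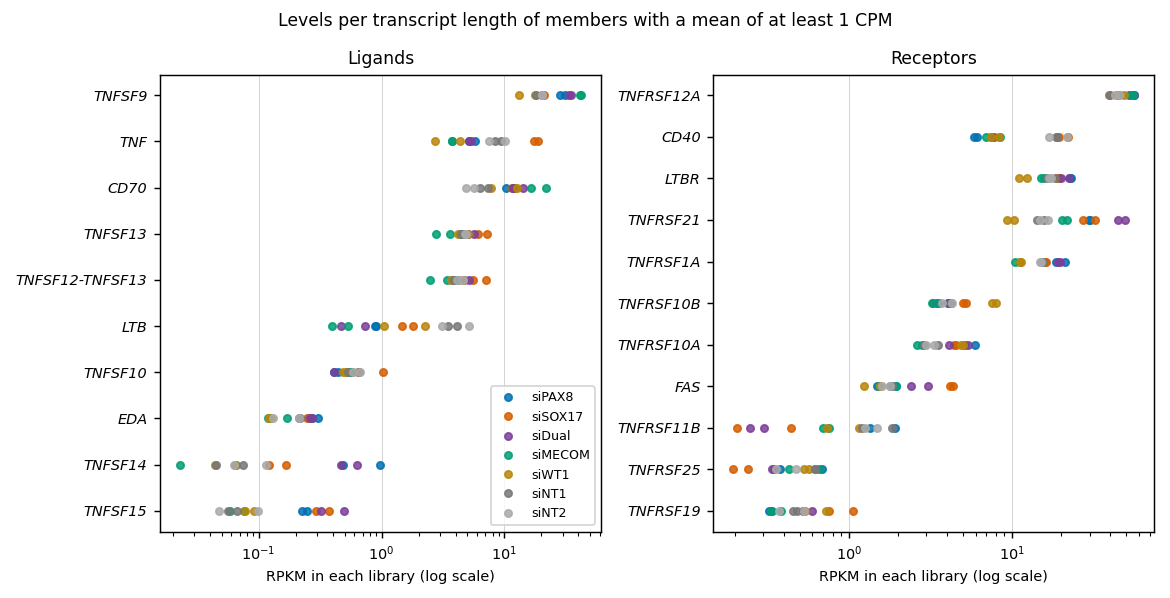
RPKM on a log axis of the 21 members with a mean of at least 1 CPM, with a point for each of the 14 libraries coloured by siRNA group and ligands left of receptors. TNFRSF12A heads the receptors at a control mean of 43.3 RPKM and TNFSF9 the ligands at 19.6 RPKM.

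Many partners of immune cells were close to silent. CD40LG and TNFRSF13B (TACI) had 0 counts in every library, where 0 counts allow up to 3 in each. FASLG, LTA, TNFSF8, TNFSF11 (RANK ligand), TNFSF18, TNFRSF4 (OX40), TNFRSF17 (BCMA), TNFRSF18 (GITR), TNFRSF10D and EDA2R never passed 8 counts. These 12 members were too low to test. CD40 was counted without its ligand CD40LG, and FAS without more than 2 counts of FASLG. TNFSF10 (TRAIL), the ligand of TNFRSF10A and TNFRSF10B, was at 1.86 to 2.32 CPM in the controls. Of the 35 members tested, 10 did not pass the count filter in every group. EDAR, NGFR, TNFSF13B and TNFRSF11A passed it through libraries of only 2 groups, so that a difference was built into their being tested. TNFRSF13C passed it in 4 groups, siPAX8, siSOX17 and siDual not among them, so the same holds for its falls there. Of 11 leukocyte markers, 10 summed to 0.597 to 1.17 CPM in every library, and PTPRC was at most 0.133 CPM. With CSF1R, the exception, the list summed to 20.2 to 22.9 CPM in siPAX8, 21.0 to 23.2 in siSOX17, 28.9 to 39.9 in siDual, 6.62 to 7.57 in siMECOM and 1.38 to 1.41 in siWT1, against 4.29 to 5.21 CPM in the controls. The 6 fibroblast markers summed to 66.6 to 70.3 CPM in siPAX8, 61.8 to 67.0 in siSOX17, 75.9 to 84.0 in siDual, 26.1 to 27.3 in siMECOM and 26.3 to 28.3 in siWT1, against 35.4 to 45.6 CPM in the controls. The 4 endothelial markers summed to 19.3 to 19.8 CPM in siPAX8 and to 6.31 to 9.33 CPM in the other knockdowns, against 8.64 to 10.2 CPM in the controls. The part of these shifts in the members' values was not tested.

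Over the 5 knockdowns, 30 of the 35 tested members were called in at least 1 of them (edgeR's quasi-likelihood test, Benjamini-Hochberg adjusted p under 0.05 over 21032 genes). The 30 hold EDAR, NGFR, TNFSF13B and TNFRSF11A, which passed the count filter through only 2 groups and give no support. They also hold TNFRSF13C, which passed it in none of the knockdowns where it was called and gives no support either. TNF, LTB, CD70 and TNFRSF21 were called in all 5. The shares of all genes called in at least 1 knockdown and in all 5 were not worked out. Single knockdowns called 32.6 to 56.2% of all genes, so neither count sets the members apart from other genes. After siPAX8, 17 members were called, 12 higher and 5 lower, where 52.2% of all genes tested were called, 26.9% higher and 25.4% lower. After siSOX17, 22 were called, 16 higher and 6 lower, against 52.6% of all genes, 27.2% higher and 25.5% lower. After siDual, 21 were called, 14 higher and 7 lower, against 56.2% of all genes, 28.9% higher and 27.3% lower. The 22 hold EDAR, TNFSF13B and TNFRSF11A and the 21 hold TNFSF13B, members that passed the count filter through only 2 groups. The 17, the 22 and the 21 each hold TNFRSF13C, which passed it in no library of siPAX8, siSOX17 or siDual. The shares of members called, 48.6% in siPAX8 and 62.9% in siSOX17, were near those backgrounds. The median log2 difference of the 35 was 0.17 in siPAX8, 0.32 in siSOX17 and 0.24 in siDual, and that of all genes was -0.00, -0.01 and -0.00.

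After siMECOM, 13 members were called, 5 higher and 8 lower, where 32.6% of all genes were called, 16.5% higher and 16.1% lower. After siWT1, 16 were called, 6 higher and 10 lower, against 37.5% of all genes, 17.7% higher and 19.8% lower. The siMECOM calls hold NGFR and the siWT1 calls hold EDAR, which also passed the count filter through only 2 groups. The median log2 difference of the 35 was -0.21 in siMECOM and -0.33 in siWT1, and that of all genes was 0.01 and -0.00. Of the 35, those called and at least 2-fold apart numbered 7 in siPAX8 (14.5% of all genes), 13 in siSOX17 (14.6%) and 12 in siDual (16.8%). They numbered 6 in siMECOM (6.75%) and 5 in siWT1 (6.31%). These counts too hold EDAR, TNFSF13B and TNFRSF11A in siSOX17, TNFSF13B in siDual, NGFR in siMECOM and EDAR in siWT1. Those of siPAX8, siSOX17 and siDual also hold TNFRSF13C. A difference was built into the testing of these members, so the counts are no support. All 5 comparisons share the same 4 control libraries. Between the control pools, siNT1 against siNT2, 0 members were called by edgeR and 0 by DESeq2. TNFRSF25 alone had an unadjusted p under 0.05 there. Of all genes 0.300% were called between these pools, 0.242% higher and 0.0571% lower in siNT1.

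**Figure D2:**
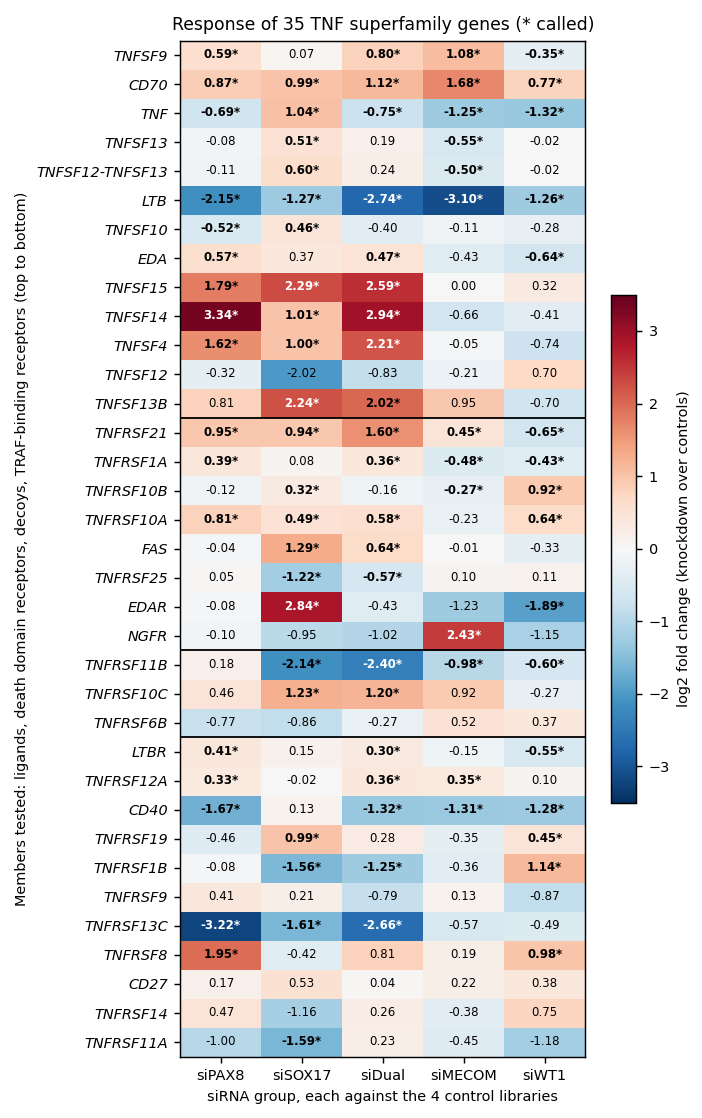
Log2 difference of each tested member from the controls in the 5 knockdown groups (number and colour, red higher and blue lower), with a star where the adjusted p was under 0.05. Lines part the ligands, death domain receptors, decoys and TRAF-binding receptors. TNF is red in siSOX17 at 1.04 and blue in the other 4 groups, and CD70 is red in all 5. Stars on EDAR, NGFR, TNFSF13B and TNFRSF11A are no support, since these passed the count filter through only 2 groups. Stars on TNFRSF13C are no support either, since no library of siPAX8, siSOX17 or siDual passed it.

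Among the ligands, TNF and LTB parted. TNF (chromosome 6, 31575567 to 31578336 on hg38) was at 8.69 and 9.67 CPM in siPAX8, 31.5 and 29.3 in siSOX17, 8.68 and 8.93 in siDual, 6.23 and 6.27 in siMECOM and 4.57 and 7.28 in siWT1, against 15.8, 14.01, 12.6 and 17.1 CPM in the 4 control libraries. Both siSOX17 libraries lay above every control, and the 8 other knockdown libraries lay below every control. TNF rose by 1.04 ± 0.13 on the log2 scale (± SE here and below) in siSOX17 (edgeR adjusted p = 1.51e-06). It fell by 0.69 ± 0.14 in siPAX8, 0.75 ± 0.15 in siDual, 1.25 ± 0.15 in siMECOM and 1.32 ± 0.15 in siWT1, with adjusted p from 0.000432 to 1.2e-06. Set directly against each other, siPAX8 was lower than siSOX17 by a log2 difference of -1.73 ± 0.16 (adjusted p = 7.03e-08).

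LTB (chromosome 6, 31580525 to 31582522), whose product anchors lymphotoxin at the membrane, ends 2189 bases from the end of TNF. It was at 1.38 and 1.36 CPM in siPAX8, 2.26 and 2.79 in siSOX17, 1.12 and 0.72 in siDual, 0.814 and 0.604 in siMECOM and 1.62 and 3.47 in siWT1, against 5.33, 6.35, 4.73 and 7.90 CPM in the controls. All 10 knockdown libraries lay below every control library, siSOX17 included, where TNF was up. LTB fell by 2.15 ± 0.27 in siPAX8, 1.27 ± 0.25 in siSOX17, 2.74 ± 0.30 in siDual, 3.10 ± 0.30 in siMECOM and 1.26 ± 0.24 in siWT1 on the log2 scale, with edgeR adjusted p from 0.000426 to 2.09e-07. The siWT1 libraries were far apart, and the log2 difference was -0.81 without siWT1 replicate 1 and -1.91 without siWT1 replicate 2. LTA, the third gene of the cluster, which ends 1243 bases before TNF, had at most 4 counts in a library.

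A second cluster of ligands lies on chromosome 19, where TNFSF9 (6530999 to 6535928), CD70 (6583183 to 6604103) and TNFSF14 (6661253 to 6670588) follow each other. CD70, the ligand of CD27, was at 15.7 and 17.8 CPM in siPAX8, 18.7 and 17.7 in siSOX17, 18.1 and 21.9 in siDual, 25.3 and 33.6 in siMECOM and 11.9 and 19.4 in siWT1, against 9.62, 11.2, 7.47 and 8.69 CPM in the controls. Every knockdown library was above every control. CD70 rose by 0.87 ± 0.15 in siPAX8, 0.99 ± 0.15 in siSOX17, 1.12 ± 0.15 in siDual, 1.68 ± 0.15 in siMECOM and 0.77 ± 0.15 in siWT1, with edgeR adjusted p from 0.000567 to 4.6e-08. The siWT1 call was lost without siWT1 replicate 2, at a log2 difference of 0.37 and an edgeR adjusted p of 0.0835. Its receptor CD27 was not called in any knockdown and did not exceed 0.383 CPM.

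TNFSF9, which costimulates T cells through 4-1BB, was at 46.7 and 51.7 CPM in siPAX8, 33.7 and 34.8 in siSOX17, 57.9 and 55.7 in siDual, 68.6 and 70.1 in siMECOM and 22.0 and 29.5 in siWT1, against 30.2, 33.5, 33.7 and 33.4 CPM in the controls. The siPAX8, siDual and siMECOM libraries lay above every control and the siWT1 libraries below. It rose by 0.59 ± 0.09 in siPAX8, 0.80 ± 0.09 in siDual and 1.08 ± 0.09 in siMECOM on the log2 scale (edgeR adjusted p from 1.6e-05 to 1.57e-08). It fell by 0.35 ± 0.09 in siWT1 (adjusted p = 0.0065), a call lost without siWT1 replicate 1 at a log2 difference of -0.15. The siSOX17 difference of 0.07 ± 0.09 was not called.

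TNFSF14 (LIGHT), a ligand of LTBR and HVEM, was at 2.34 and 4.66 CPM in siPAX8, 0.796 and 0.584 in siSOX17, 2.24 and 3.04 in siDual, 0.110 and 0.312 in siMECOM and 0.210 and 0.306 in siWT1, against 0.354, 0.215, 0.301 and 0.550 CPM in the controls. The 4 libraries that received the PAX8 pool lay above all 10 others. It rose by 3.34 ± 0.31 in siPAX8 and by 2.94 ± 0.32 in siDual on the log2 scale (edgeR adjusted p = 2.48e-08 and 2.22e-07). The siSOX17 difference of 1.01 ± 0.41 was called at an adjusted p of 0.0482. It was lost in 6 of the 14 fits that left out a library, among them those without siSOX17 replicate 1 (0.76) and without siSOX17 replicate 2 (1.21). Between siPAX8 and siSOX17 the log2 difference was 2.33 ± 0.35 (adjusted p = 3.24e-05).

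TNFSF15 (TL1A), the ligand of DR3, was at 1.78 and 1.94 CPM in siPAX8, 2.94 and 2.31 in siSOX17, 2.55 and 3.89 in siDual, 0.462 and 0.604 in siMECOM and 0.724 and 0.613 in siWT1, against 0.448, 0.528, 0.782 and 0.374 CPM in the controls. It rose by 1.79 ± 0.25 in siPAX8, 2.29 ± 0.24 in siSOX17 and 2.59 ± 0.24 in siDual on the log2 scale (edgeR adjusted p from 6.48e-06 to 1.78e-08). The siMECOM and siWT1 libraries overlapped the controls. TNFSF4 (OX40 ligand), at 0.117 to 0.381 CPM in the controls, rose by 1.62 ± 0.35 in siPAX8 and 2.21 ± 0.33 in siDual. Its siSOX17 call at 1.00 ± 0.40 was lost in 5 of the 14 fits without a library, at 0.68 without siNT1 replicate 2. TNFSF13B (BAFF) was at 0.323 and 0.451 CPM in siSOX17 and 0.346 and 0.315 CPM in siDual, against at most 0.132 CPM in the controls. Its log2 differences of 2.24 ± 0.51 in siSOX17 and 2.02 ± 0.52 in siDual are given with no p, since it passed the filter through those groups. TNFSF13 (APRIL) rose by 0.51 ± 0.11 and its read-through TNFSF12-TNFSF13 by 0.60 ± 0.13 in siSOX17. Both fell in siMECOM, by 0.55 ± 0.12 and 0.50 ± 0.14 in that order, calls lost without siMECOM replicate 2 at -0.37 and -0.29. Since they share exons their reads cannot be told apart. Over the class, 13 of 19 ligands were tested, and those called numbered 6 higher and 3 lower in siPAX8, 9 and 1 in siSOX17, 7 and 2 in siDual, 2 and 4 in siMECOM, and 1 and 4 in siWT1. These are 69.2, 76.9, 69.2, 46.2 and 38.5% of the tested ligands, where 52.2, 52.6, 56.2, 32.6 and 37.5% of all genes were called in the same order. The counts hold TNFSF13 and its read-through as 2 ligands, and TNFSF13B.

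**Figure D3:**
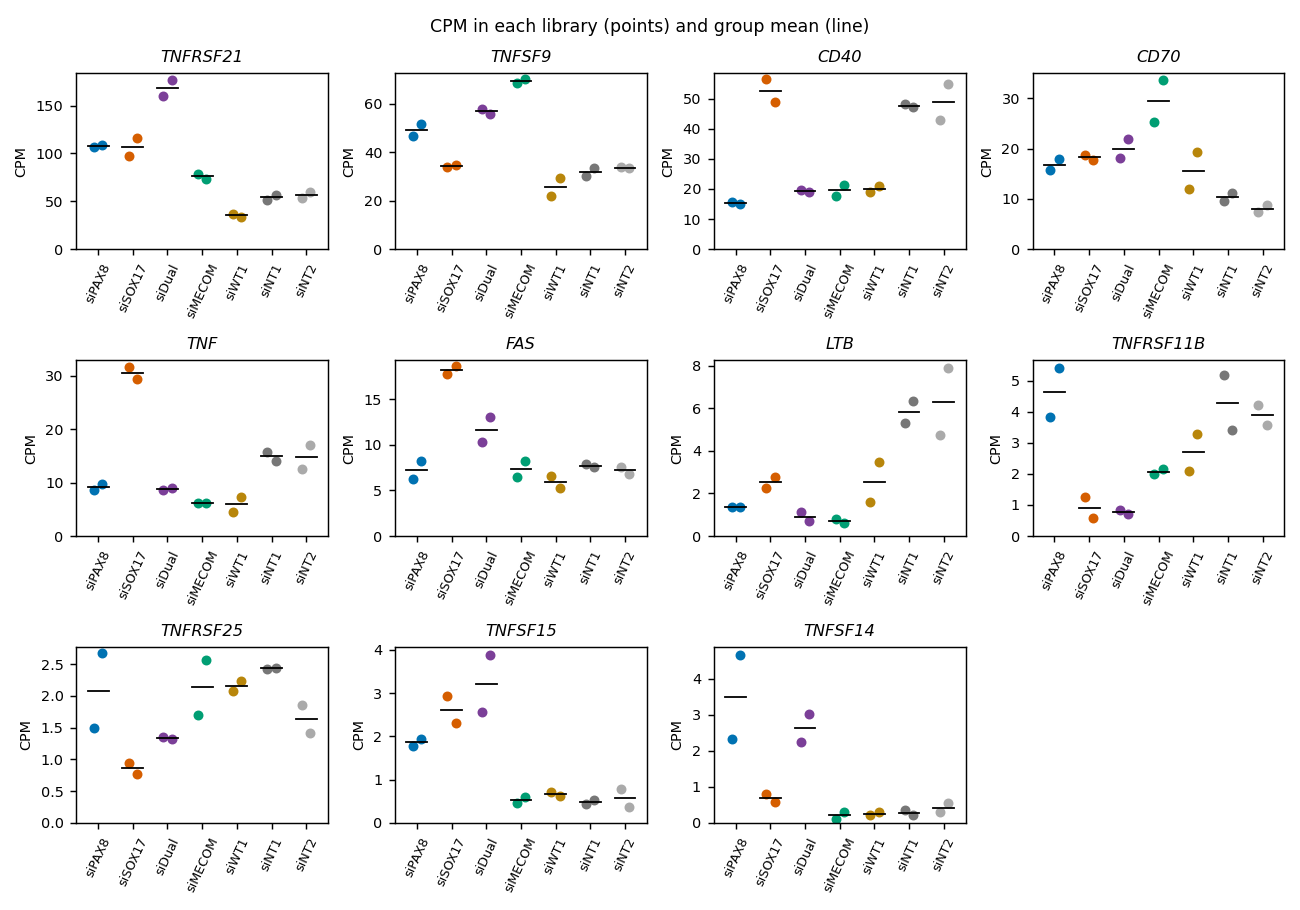
CPM of the members with a mean of at least 1 CPM and a called difference of at least 2-fold, in each of the 14 libraries (points) with the group mean (line), on linear axes from 0 and with knockdown groups left of the control pools. LTB points of every knockdown lie below the 4.73 to 7.90 CPM of the controls, CD70 points lie above the 7.47 to 11.2 CPM of the controls, and CD40 splits into siSOX17 with the controls and the other 4 groups below.

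Among the death domain receptors, TNFRSF21 (DR6, chromosome 6) was at 106.4 and 108.4 CPM in siPAX8, 97.8 and 115.7 in siSOX17, 160.6 and 176.7 in siDual, 78.4 and 73.5 in siMECOM and 37.0 and 33.7 in siWT1, against 51.7, 56.8, 53.7 and 60.2 CPM in the controls. Every siWT1 library was below the controls and all other knockdown libraries were above them. It rose by 0.95 ± 0.08 in siPAX8, 0.94 ± 0.08 in siSOX17, 1.602 ± 0.08 in siDual and 0.45 ± 0.08 in siMECOM and fell by 0.65 ± 0.08 in siWT1 on the log2 scale (edgeR adjusted p from 0.000223 to 2.49e-12). With both pools together it was higher than with siPAX8 alone by 0.65 ± 0.09 and than with siSOX17 alone by 0.66 ± 0.09.

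FAS (chromosome 10, 88990582 to 89015785), the receptor of FAS ligand, was at 6.31 and 8.24 CPM in siPAX8, 17.8 and 18.6 in siSOX17, 10.3 and 13.0 in siDual, 6.52 and 8.24 in siMECOM and 6.61 and 5.27 in siWT1, against 7.87, 7.58, 7.57 and 6.84 CPM in the controls. The siSOX17 and siDual libraries lay above every control. FAS rose by 1.29 ± 0.13 in siSOX17 and by 0.64 ± 0.13 in siDual on the log2 scale (edgeR adjusted p = 6.07e-08 and 0.000304). Exons of FAS overlap those of ACTA2 on the opposite strand, and the strand setting of the counting is not given in the sources used here. ACTA2 changed by 3.04 ± 0.16 in siSOX17 and 2.83 ± 0.16 in siDual, and by 1.01 ± 0.18 in siPAX8, where the FAS difference was -0.04 ± 0.14. The part of ACTA2 reads in the FAS values was not tested.

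TNFRSF25 (DR3), the receptor of TNFSF15, was at 1.49 and 2.67 CPM in siPAX8, 0.945 and 0.769 in siSOX17, 1.36 and 1.33 in siDual, 1.69 and 2.57 in siMECOM and 2.08 and 2.24 in siWT1, against 2.43, 2.44, 1.86 and 1.41 CPM in the controls. It fell by 1.22 ± 0.26 in siSOX17 on the log2 scale (edgeR adjusted p = 0.000627). The siDual difference of -0.57 ± 0.24 (adjusted p = 0.0463) was lost in 7 of the 14 fits without a library, including those without siDual replicate 1 (-0.59) and without siDual replicate 2 (-0.56). Its exons overlap those of ESPN and PLEKHG5, which changed by -2.18 ± 0.32 and -0.85 ± 0.13 in siSOX17, and their part in this fall was not tested. In siSOX17, then, the ligand TNFSF15 was higher and its receptor lower.

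TNFRSF10B (DR5), a signalling receptor of TRAIL, was at 41.2 and 39.0 CPM in siWT1, against 21.8, 21.9, 22.1 and 19.1 CPM in the controls, and rose by 0.92 ± 0.09 on the log2 scale (edgeR adjusted p = 2.17e-07). Exons of TNFRSF10B overlap those of RHOBTB2 on the opposite strand. RHOBTB2 differed by -0.67 ± 0.09 in siWT1, -0.27 ± 0.09 in siMECOM, -0.30 ± 0.09 in siSOX17, 0.31 ± 0.08 in siPAX8 and -0.09 ± 0.09 in siDual. The part of RHOBTB2 reads in the TNFRSF10B values was not tested. In siSOX17 TNFRSF10B rose by 0.32 ± 0.09 (adjusted p = 0.00753), a call lost without siSOX17 replicate 1 at 0.29, while siPAX8 at -0.12 ± 0.10 and siDual at -0.16 ± 0.10 were not called. In siMECOM it fell by 0.27 ± 0.10 (adjusted p = 0.0355), a call lost in 5 of the 14 fits without a library, at -0.21 without siMECOM replicate 1. TNFRSF10A (DR4) was at 15.3 and 17.7 CPM in siPAX8, 13.1 and 13.3 in siSOX17, 12.1 and 15.9 in siDual and 14.8 and 14.4 in siWT1, against 10.5, 8.54, 9.78 and 8.82 CPM in the controls. It rose in these 4 groups, by 0.81 ± 0.11, 0.49 ± 0.11, 0.58 ± 0.11 and 0.64 ± 0.11 in that order, and in siDual by 0.37 without siDual replicate 2. Exons of TNFRSF10A overlap those of TNFRSF10A-AS1 and AC100861.1 on the opposite strand, whose part in its values was not tested. TNFSF10, the ligand of TNFRSF10A and TNFRSF10B, held called differences of -0.52 ± 0.20 in siPAX8 and 0.46 ± 0.18 in siSOX17. The siSOX17 difference was 0.07 without siSOX17 replicate 1 and 0.75 without siSOX17 replicate 2, and the siPAX8 difference was -0.47 with an edgeR adjusted p of 0.162 without siPAX8 replicate 1.

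TNFRSF1A (TNFR1), at 59.7 to 62.1 CPM in the controls, rose by 0.39 ± 0.07 in siPAX8 and 0.36 ± 0.07 in siDual and fell by 0.48 ± 0.07 in siMECOM and 0.43 ± 0.07 in siWT1 (edgeR adjusted p from 0.00013 to 2.27e-05). In siSOX17, where its ligand TNF rose, the receptor differed by 0.08 ± 0.07 and was not called. EDAR, the receptor of ectodysplasin, was at 1.19 and 0.982 CPM in siSOX17 and at 0.133 and 0.0900 CPM in siDual, against 0.110 to 0.236 CPM in the controls. Its log2 difference was 2.84 ± 0.31 in siSOX17 and -0.43 ± 0.50 in siDual, given with no p because it passed the filter through siSOX17, where it is high. NGFR (p75) was at 0.616 and 1.03 CPM in siMECOM, against 0.110 to 0.212 CPM in the controls. Its log2 difference of 2.43 ± 0.34 there likewise carries no p, since siMECOM brought it past the filter. All 8 death domain receptors were tested, and those called numbered 3 higher and 0 lower in siPAX8, 5 and 1 in siSOX17, 4 and 1 in siDual, 2 and 2 in siMECOM, and 2 and 3 in siWT1. These are 37.5, 75, 62.5, 50 and 62.5% of the class, EDAR and NGFR included, where 52.2, 52.6, 56.2, 32.6 and 37.5% of all genes were called in the same order.

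Of the decoys, TNFRSF11B (osteoprotegerin), which binds RANK ligand and TRAIL, was at 3.82 and 5.41 CPM in siPAX8, 1.24 and 0.584 in siSOX17, 0.852 and 0.698 in siDual, 1.98 and 2.14 in siMECOM and 2.10 and 3.29 in siWT1, against 5.19, 3.40, 4.21 and 3.56 CPM in the controls. The siSOX17, siDual, siMECOM and siWT1 libraries lay below every control, and siPAX8 overlapped them. It fell by 2.14 ± 0.28 in siSOX17, 2.40 ± 0.29 in siDual and 0.98 ± 0.23 in siMECOM on the log2 scale (edgeR adjusted p from 0.00306 to 7.33e-07). The siWT1 difference of -0.60 ± 0.22 was no longer called without siWT1 replicate 1 (-0.31), siNT1 replicate 1 (-0.44) or siNT2 replicate 1 (-0.53), and was -0.96 without siWT1 replicate 2. Against siPAX8, siDual was lower by a log2 difference of -2.58 ± 0.31 (adjusted p = 6.48e-06). TNFRSF10C, a decoy for TRAIL, was at 0.348 and 0.478 CPM in siSOX17 and 0.399 and 0.405 CPM in siDual, against 0.132 to 0.240 CPM in the controls. Its log2 differences of 1.23 ± 0.42 and 1.20 ± 0.42 were called, but the calls were lost in 2 and 4 of the 14 fits without a library. They were 1.04 and 1.00 without siNT2 replicate 2, and siSOX17 was at 0.99 without siSOX17 replicate 2.

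Among receptors that bind TRAF proteins, CD40 (chromosome 20, 46118272 to 46129863) was at 15.5 and 14.8 CPM in siPAX8, 56.3 and 49.0 in siSOX17, 19.6 and 18.9 in siDual, 17.6 and 21.4 in siMECOM and 18.8 and 21.0 in siWT1, against 48.2, 47.1, 43.0 and 54.97 CPM in the controls. The siSOX17 libraries overlapped the controls, and the 8 others lay far below them. CD40 fell by 1.67 ± 0.11 in siPAX8, 1.32 ± 0.11 in siDual, 1.31 ± 0.10 in siMECOM and 1.28 ± 0.10 in siWT1 on the log2 scale (edgeR adjusted p from 1.56e-08 to 1.57e-10). In siSOX17 it differed by 0.13 ± 0.10 (adjusted p = 0.29). The direct log2 difference between siPAX8 and siSOX17 was -1.79 ± 0.12 (adjusted p = 7.08e-10).

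LTBR, at 103 to 115 CPM in the controls, rose by 0.41 ± 0.07 in siPAX8 and 0.30 ± 0.07 in siDual and fell by 0.55 ± 0.07 in siWT1 (edgeR adjusted p from 0.00114 to 8.04e-06). Exons of LTBR overlap those of SCNN1A on the opposite strand. SCNN1A differed by 0.02 ± 0.16 in siPAX8, -1.41 ± 0.19 in siSOX17, -0.84 ± 0.18 in siDual, -0.15 ± 0.17 in siMECOM and -0.69 ± 0.17 in siWT1. Its part in the LTBR values was not tested. Without siDual replicate 2 the siDual difference of LTBR was 0.22 with an edgeR adjusted p of 0.0539. TNFRSF12A rose by 0.33 ± 0.07 in siPAX8, 0.36 ± 0.07 in siDual and 0.35 ± 0.07 in siMECOM. TNFRSF13C (BAFF receptor) was at 0.0849 and 0.0446 CPM in siPAX8, against 0.462 to 0.731 CPM in the controls. Its log2 differences of -3.22 ± 0.43 in siPAX8, -1.61 ± 0.36 in siSOX17 and -2.66 ± 0.41 in siDual are values and no support. It passed the filter through control, siMECOM and siWT1 libraries, where it is higher, and through none of siPAX8, siSOX17 or siDual. TNFRSF1B (TNFR2), which binds membrane TNF, stood at 1.35 and 1.34 CPM in siWT1 and at 0.274 and 0.133 CPM in siSOX17, against 0.462 to 0.896 CPM in the controls. It rose by 1.14 ± 0.24 in siWT1 and fell by 1.56 ± 0.38 in siSOX17 and 1.25 ± 0.35 in siDual. The siSOX17 difference was -1.15 with an edgeR adjusted p of 0.0506 without siSOX17 replicate 2. The siDual difference was -0.85 and not called without siDual replicate 1, and -1.92 without siDual replicate 2. TNFRSF8 (CD30) rose by 1.95 ± 0.34 in siPAX8, and TNFRSF19 (TROY) by 0.99 ± 0.17 in siSOX17. Their siWT1 calls, at 0.98 ± 0.38 and 0.45 ± 0.17, were lost in 12 and 10 of the 14 fits without a library, and TNFRSF19 was at 0.22 without siWT1 replicate 2. Of 11 tested members of this class, 3 rose and 2 fell in siPAX8, 1 and 3 in siSOX17, 2 and 3 in siDual, 1 and 1 in siMECOM, and 3 and 2 in siWT1. These are 45.5, 36.4, 45.5, 18.2 and 45.5% of those tested, where 52.2, 52.6, 56.2, 32.6 and 37.5% of all genes were called in the same order. The siSOX17 count holds TNFRSF11A, which passed the count filter through only 2 groups. Those of siPAX8, siSOX17 and siDual hold TNFRSF13C, with the limit given above.

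The joint knockdown was compared with its parts. Between siDual and siPAX8, 8 members were called, 4 higher and 4 lower, where 19.6% of all genes were called, 11.0% higher and 8.55% lower. This count was 3 without siPAX8 replicate 2 or siDual replicate 2, 4 without siPAX8 replicate 1 or siDual replicate 1, 5 without either siNT1 replicate, and 5 by DESeq2 (4 higher and 1 lower). Only 2 of the 8 calls held in every alternative. Between siDual and siSOX17, 14 were called, 6 higher and 8 lower, against 15.7% of all genes, 7.85% higher and 7.82% lower, a count of 9 without siDual replicate 2. Between siPAX8 and siSOX17, 22 were called, 10 higher and 12 lower, against 37.3% of all genes, 17.6% higher and 19.8% lower. The 14 hold EDAR, and the 22 hold EDAR, TNFSF13B and TNFRSF13C. The way these passed the count filter built in a difference, so they give no support. TNF, high in siSOX17 and low in siPAX8, was close to its siPAX8 level with both pools. In siDual it differed from siPAX8 by -0.06 ± 0.17 (95% interval -0.41 to 0.29) and from siSOX17 by -1.79 ± 0.16 on the log2 scale (edgeR adjusted p = 2.44e-07). CD40 in siDual differed from siPAX8 by 0.35 ± 0.12 (adjusted p = 0.0504) and from siSOX17 by -1.45 ± 0.12 (adjusted p = 5.33e-08). EDAR in siDual differed from siSOX17 by -3.28 ± 0.42, with the same limit from the filter. TNFRSF11B in siDual lay by siSOX17, with a difference of -0.26 ± 0.39 from siSOX17 (95% interval -1.07 to 0.56).

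**Figure D4:**
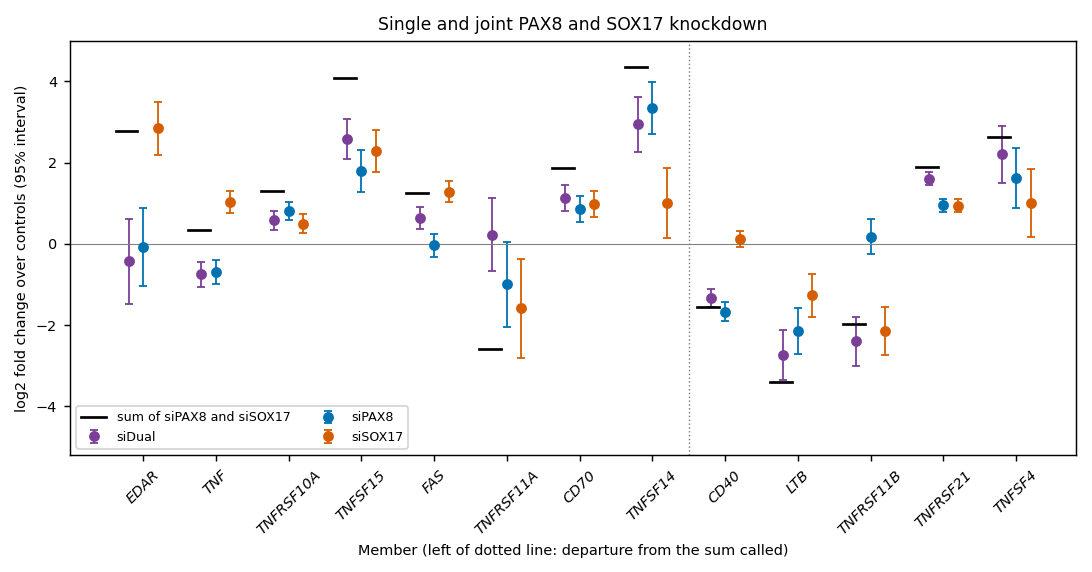
Log2 difference from the controls in siDual, siPAX8 and siSOX17 (points with 95% intervals) and the sum of the single responses (black line) for 13 members. Left of the dotted line are the 8 members whose joint response departed from that sum by the test. EDAR and TNFRSF11A among them passed the count filter through only 2 groups, so their places there are no support. For TNF the siDual point lies by the siPAX8 point and for TNFRSF11B by the siSOX17 point. For CD40 it lies somewhat above the siPAX8 point and below the siSOX17 point, and for TNFRSF21 above both.

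The joint response was then set against the sum of the single responses on the log2 scale, a departure of 0 meaning that they add up. A weaker knockdown in siDual and a lack of additivity cannot be told apart in such a departure. A departure was called for 8 members, 1 higher and 7 lower, where 25.1% of all genes were called, 12.0% higher and 13.0% lower. The 8 hold EDAR and TNFRSF11A (the 1 higher), which passed the count filter through only 2 groups and give no support. The count was 5 without siPAX8 replicate 2 and 4 without siDual replicate 1. TNF departed by -1.10 ± 0.21 (edgeR adjusted p = 0.000755), TNFSF15 by -1.49 ± 0.35 (0.00356) and TNFRSF10A by -0.72 ± 0.17 (0.00389). These 3 calls held in every alternative that could be fitted. EDAR departed by -3.20 ± 0.67, a value fixed in part by the filter it passed through siSOX17. The sums and the single knockdowns use the same controls. TNFRSF21, whose siDual level was the highest of all groups, departed by -0.29 ± 0.12 and was not called.

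Genes of the steps around the receptors were taken from 4 lists. Of 26 genes for TRAF, ubiquitin and kinase steps to NF-kappaB, 13 rose and 6 fell in siPAX8, 11 and 5 in siSOX17, 10 and 6 in siDual, 4 and 3 in siMECOM, and 3 and 6 in siWT1. The shares called were 73.1, 61.5, 61.5, 26.9 and 34.6% in that order, against 52.2, 52.6, 56.2, 32.6 and 37.5% of all genes. TRAF1, an NF-kappaB-induced adaptor, averaged 0.895 CPM in siPAX8, 2.51 in siSOX17 and 1.62 in siDual, against 0.354 CPM in the controls. It rose by 1.31 ± 0.28, 2.80 ± 0.24 and 2.17 ± 0.26 on the log2 scale in that order. BIRC3 (cIAP2), a ubiquitin ligase of TNF receptor complexes, averaged 92.2, 154 and 101 CPM in those groups, against 38.02 CPM in the controls, and rose by 1.28 ± 0.27, 2.02 ± 0.27 and 1.41 ± 0.27. CYLD, which removes such ubiquitin chains, rose by 1.11 ± 0.11 in siPAX8, 0.94 ± 0.11 in siSOX17, 1.28 ± 0.11 in siDual and 0.76 ± 0.11 in siWT1. TRAF3, a brake on the noncanonical branch, fell by 0.98 ± 0.07 in siWT1 (edgeR adjusted p = 6.66e-09) and by 0.25 ± 0.07 to 0.51 ± 0.07 in the other 4 groups.

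Among 20 NF-kappaB subunits, inhibitors and feedback targets, 7 rose and 7 fell in siPAX8, 5 and 5 in siSOX17, 5 and 10 in siDual, and 4 and 5 in siWT1. The shares called were 70% in siPAX8, 50% in siSOX17, 75% in siDual and 45% in siWT1, against 52.2, 52.6, 56.2 and 37.5% of all genes. In siMECOM 0 rose and 13 fell, where 16.1% of all genes were called lower, and the list's median log2 difference was -0.43 against 0.01 over all genes. BCL3 fell there by 1.30 ± 0.14, SOD2 by 0.92 ± 0.13 and TNFAIP2 by 0.88 ± 0.12. IER3, an early response gene, averaged 590 CPM in siPAX8, 460 in siSOX17 and 698 in siDual, against 146 CPM in the controls, and rose by 2.02 ± 0.07, 1.66 ± 0.07 and 2.26 ± 0.07. It fell by 0.21 ± 0.08 in siMECOM and by 0.84 ± 0.08 in siWT1. ICAM1, an adhesion molecule induced by TNF, rose by 0.64 ± 0.07 in siPAX8, 1.24 ± 0.07 in siSOX17 and 0.82 ± 0.07 in siDual and fell by 0.77 ± 0.08 in siMECOM and 0.83 ± 0.08 in siWT1. TNFAIP3 (A20), the feedback inhibitor, fell by 0.88 ± 0.16 in siSOX17, 0.84 ± 0.16 in siDual and 0.65 ± 0.16 in siWT1.

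Of 17 genes of death receptor signalling, 5 rose and 3 fell in siPAX8, 8 and 1 in siSOX17, 7 and 2 in siDual, 5 and 3 in siMECOM, and 2 and 3 in siWT1. The shares called were 47.1, 52.9, 52.9, 47.1 and 29.4%, against 52.2, 52.6, 56.2, 32.6 and 37.5% of all genes. BID, which carries the signal to mitochondria, rose by 0.66 ± 0.07, 0.66 ± 0.07 and 0.83 ± 0.07 in siPAX8, siSOX17 and siDual and fell by 0.40 ± 0.07 in siMECOM. Of 8 genes that shed ligands and receptors or govern shedding, 5 rose and 1 fell in siPAX8, 4 and 2 in siSOX17, 5 and 2 in siDual, 1 and 4 in siMECOM, and 1 and 4 in siWT1. The shares called were 75, 75, 87.5, 62.5 and 62.5% of these 8 genes, against the same shares of all genes. The risers included TIMP3, an inhibitor of the TNF convertase, which averaged 339 CPM in siPAX8, 194 in siSOX17 and 302 in siDual, against 98.2 CPM in the controls, and rose by 1.79 ± 0.08, 0.98 ± 0.08 and 1.62 ± 0.08. TIMP3 fell by 0.42 ± 0.09 in siMECOM and by 0.30 ± 0.09 in siWT1. MMP7 fell in all 5 groups, by 0.44 ± 0.14 to 1.55 ± 0.15.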

How the data were processed

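RNA of OVCAR4 cells was sequenced on the BGI platform, per the labels. The deposited values were read counts per gene, whole numbers and not normalised, on hg38. STAR 2.5.1b and featureCounts 1.6.3 are named in the submitters' processing notes. The annotation, strand setting and filters are not given in the sources used here, so reads of overlapping genes cannot be told apart. A further deposited column held gene length in bases, which was used only for RPKM. Gene names came from GENCODE 29, which matched 57881 of 58219 identifiers. Libraries held 40832825 to 49803860 counts.

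Genes were filtered with filterByExpr in edgeR 4.0.16 (at least 10 counts, total at least 15), and 21032 remained, scaled by TMM. All 14 libraries entered a single quasi-likelihood model with a coefficient per group and 7 residual degrees of freedom. Each knockdown was set against the mean of siNT1 and siNT2. Benjamini-Hochberg adjustment ran over the 21032 genes, with calls under 0.05. Standard errors were derived from the fold change and its F statistic, and 95% intervals use the fit's degrees of freedom. The code of the fit was also run on simulated counts, and that run is no support for the calls made here. R was 4.3.3.

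The members, their roles, the 4 pathway lists and the markers were chosen with earlier results of these data known, and the lists reflect general knowledge. Members were given in every library if they averaged at least 1 CPM and had a called log2 difference of at least 1 against the controls, and from each list at most the 3 largest called changes in each direction per knockdown were eligible. Other members are named for their role, and EDAR, NGFR, TNFRSF13C, the others below 1 CPM and the 3 ligands whose upstream sequence is printed were picked out after their values were seen. The alternatives comprised another test (DESeq2 1.42.0), its size factors alone, a filter at a mean of 1 CPM or none, a replicate block, siNT1 or siNT2 alone as control, and leaving out each library. The fit without mitochondrially encoded genes was added after seeing the data. Replicates of a group differed by more than sampling noise (chi-square per degree of freedom 10.1 to 19.8). Promoter windows came from RefSeq, GRCh38.p14.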

Additional observations from a re-analysis of the deposited data

Results flagged for a closer look

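In 4 of the 35 tested members, a control library stood far from the other 3, where chance marks about 1 in 20 such groups. TNFSF4 was at 0.117 CPM in siNT1 replicate 2, and the nearest of the other controls was at 0.352 CPM. TNFRSF10B was at 19.1 CPM in siNT2 replicate 2 and at 21.8 CPM or more in the others. TNFSF9 was at 30.2 CPM in siNT1 replicate 1 and at 33.4 CPM or more in the others. EDA was at 0.924 CPM in siNT2 replicate 2 and at 1.48 CPM or more in the others.

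By the test of the difference itself, the effect of the SOX17 pool was called different with and without the PAX8 pool in 8 members. The part of the smaller PAX8 loss in siDual than in siPAX8 was not tested. EDAR and TNFRSF11A are among these 8, with the limit given below. The log2 departures were -1.10 for TNF, -3.20 for EDAR, -1.49 for TNFSF15 and -0.72 for TNFRSF10A. Those of FAS at -0.60, CD70 at -0.73, TNFSF14 at -1.41 and TNFRSF11A at 2.82 were not kept in every alternative. TNFRSF11A had at most 0.293 CPM in any library. EDAR and TNFRSF11A passed the count filter through libraries of only 2 groups, so their departures are values and no support. Without siPAX8 replicate 2 these 4 were -0.40, -0.64, -0.83 and 2.44, and without siDual replicate 1 they were -0.45, -0.61, -1.21 and 2.45, in the same order and with edgeR adjusted p from 0.0711 to 0.25.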

How the results depend on the processing

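Over the 35 members, 10 comparisons and all alternatives, 7280 values were compared with those reported. Of these 6949 kept direction and side of the threshold, 269 lost a call, 62 gained one and 0 reversed. The calls kept in every alternative numbered 15 of 17 in siPAX8, 15 of 22 in siSOX17, 16 of 21 in siDual, 10 of 13 in siMECOM and 9 of 16 in siWT1. They numbered 2 of 8 between siDual and siPAX8, 6 of 14 between siDual and siSOX17, 11 of 22 between siPAX8 and siSOX17 and 4 of 8 for additivity. EDAR, NGFR and TNFSF13B, which passed the count filter through only 2 groups, are among the calls kept. So is TNFRSF13C in siPAX8, siSOX17 and siDual, where none of its libraries passed the filter. With the filter at a mean of 1 CPM only 21 members were left, and 14 were called in siSOX17, 5 between siDual and siPAX8 and 5 for additivity. DESeq2 called 5 between siDual and siPAX8. The cause of that change was not tested.

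Leaving out each library in turn gave 15 to 18 members called in siPAX8, 17 to 23 in siSOX17, 17 to 21 in siDual, 10 to 14 in siMECOM and 12 to 16 in siWT1. It gave 0 to 0 between the control pools, 3 to 8 between siDual and siPAX8 (lowest without siPAX8 replicate 2), 9 to 14 between siDual and siSOX17 (lowest without siDual replicate 2), 15 to 23 between siPAX8 and siSOX17, and 4 to 10 for additivity (lowest without siDual replicate 1). A group left with 1 library was assumed to vary like the others. Same-numbered libraries shared little: over 21 pairs of groups the correlation of their deviations was -0.02 to 0.16, with 7 over 0.1, so the numbers were not taken as a pairing. With the replicate number as a block, 18, 23, 21, 13 and 18 members were called in siPAX8, siSOX17, siDual, siMECOM and siWT1. Low counts limit the members under 1 CPM, of which 14 were tested.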
